A study of Homo sapiens with 30 samples.

Results

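The genes described are the SR proteins and the hnRNPs, together with the TRA2 proteins, the 3′ splice site factors U2AF1, U2AF2 and SF3B1, and the CLK and SRPK1 kinases. They were taken by name: rows of the expression table with a symbol of the SRSF or HNRNP series, plus TRA2A, TRA2B, U2AF1, U2AF2, SF3B1, CLK1, CLK2, CLK3, CLK4 and SRPK1. This gave 51 of the 26228 genes in the table, made up of 12 SRSF genes, 2 TRA2 genes, 29 HNRNP genes, 3 splice site factors and 5 kinases. RNA-Seq had been carried out in SH-EP, an established human neuroblastoma (NB) cell line with a mesenchymal expression state, and in 4 stable SH-EP derivatives made with a retroviral transgene. The derivatives carried WT MYCN or the phosphorylation-deficient mutants T58A, S62A or T58A S62A, all under an exogenous promoter, and the parental cells carried no transgene. Each of the 5 lines was treated for 6 hours with DMSO or with 1 μM CYC065, an inhibitor of CDK9 and CDK2, with 3 libraries per group and 30 in all. CDK9 promotes transcriptional elongation by RNAPII.

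SR proteins bind exonic enhancers in pre-mRNA and help to recruit the spliceosome, whereas hnRNPs coat nascent transcripts and often block the use of nearby splice sites. The balance between the families therefore bears on which exons are kept. TRA2 proteins act like SR proteins, U2AF1 reads the AG at the 3′ splice site, U2AF2 binds the polypyrimidine tract before it, and SF3B1 is the subunit of the U2 snRNP that contacts the branch point. CLK kinases and SRPK1 phosphorylate the RS domains of SR proteins and so set where these proteins are found and how active they are. Several of these genes are known to control their own mRNA through retained introns or poison exons, and genes of RNA processing are among the well-known targets of Myc proteins.

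Values are FPKM, fragments scaled to transcript length and to sequencing depth, which allow levels of different genes to be compared per length. The read number behind a value is not given in this unit. A relative depth was estimated by median polish from how high genes often at 0 lay where they were above it. It was 0.387 to 1 in DMSO and 0.34 to 0.586 in CYC065. This estimate also moves with the expression of such genes, so it is not a measured sequencing depth. In each library, 40.6% to 45.8% of genes were at 0. MYCN was at 0 in all 6 SH-EP libraries and at 5.08 to 15.7 FPKM in the 12 DMSO libraries of the MYCN lines. Of the defining markers, 8 mesenchymal genes summed to 3966 to 4142 FPKM in SH-EP in DMSO and to 1735 to 2510 FPKM in the MYCN lines, and 8 adrenergic genes summed to 15.5 to 17.8 and 17.6 to 24.6 FPKM. The 4 epithelial and 4 haematopoietic markers summed to less than 1 FPKM in each library. The index sequences of the 6 SH-EP libraries were also used for libraries of MYCN lines, so these could not have shared 1 pool, and what separates SH-EP from the MYCN lines cannot be told apart from what separates pools. No label says that the libraries of a group came from separate cultures, so p-values measure only the spread between these libraries.

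Genes were tested where their 30 libraries averaged 1 FPKM or more, and 44 of the 51 genes reached it. They spanned a wide range. HNRNPA2B1, an exon-silencing hnRNP, was highest, with 353 ± 16.2 FPKM (SD, n = 3) in SH-EP in DMSO, followed over all libraries by HNRNPA1, with 332 ± 16.8 FPKM. HNRNPK, HNRNPAB and SRSF2 came next. At the low end among protein-coding genes, CLK4 had 3.09 ± 0.198 FPKM, HNRNPH2 4.25 ± 1.35 FPKM and SRSF8 9.75 ± 0.345 FPKM in the same libraries. The 7 genes below the limit were SRSF12, HNRNPA3P1, HNRNPCL1, HNRNPCL2, HNRNPCL3, HNRNPCL4 and HNRNPKP3. SRSF12 was listed at 0 in all 30 libraries, and none of the other 6 exceeded 0.799 FPKM. HNRNPCL1 and HNRNPCL3 held only 0 or 0.01. Another 3 rows, HNRNPA1P10, HNRNPA1P33 and HNRNPA1L2, are near-copies of HNRNPA1 that can share its reads. HNRNPA1P10 ran from 0.01 to 162.8 FPKM, with both extremes in the T58A libraries in DMSO, so values of these 3 are uncertain. HNRNPA1P33 was the lowest of the 44, with a mean of 1.08 FPKM and 14 libraries at 0.

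The E-box CACGTG is the site that MYCN and its partner MAX prefer, and it reads the same on both strands. RefSeq promoters, from 250 bases before to 50 bases after the start (GRCh38.p14), were found for 39 of the 44 genes, and 10 of these (25.6%) held CACGTG: CLK2, CLK4, HNRNPA3, HNRNPD, HNRNPDL, HNRNPH2, HNRNPH3, HNRNPM, HNRNPUL1 and SF3B1. Among the 8609 tested genes with a promoter the share was 10.6%, and among all 27305 promoters 7.43%. By response, 4 of the 27 genes higher in all 4 MYCN lines as deposited held it, and 6 of the other 12. These shares are given without a test. The 250 bases before the start are shown for the 4 holders with the largest mean change between MYCN lines and SH-EP, 5′ to 3′ on the strand of the gene, with the E-box in capitals. They matched GRCh37 without mismatch, at chrX:100662960-100663209 (HNRNPH2, plus strand), chr19:8509609-8509858 (HNRNPM, plus strand), chr10:70091200-70091449 (HNRNPH3, plus strand) and chr4:83295145-83295394 (HNRNPD, minus strand).
HNRNPH2: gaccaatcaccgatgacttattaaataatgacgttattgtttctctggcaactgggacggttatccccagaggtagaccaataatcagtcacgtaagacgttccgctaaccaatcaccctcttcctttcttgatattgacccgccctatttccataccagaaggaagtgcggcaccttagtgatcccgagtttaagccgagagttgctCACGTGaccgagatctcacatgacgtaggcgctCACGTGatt
HNRNPM: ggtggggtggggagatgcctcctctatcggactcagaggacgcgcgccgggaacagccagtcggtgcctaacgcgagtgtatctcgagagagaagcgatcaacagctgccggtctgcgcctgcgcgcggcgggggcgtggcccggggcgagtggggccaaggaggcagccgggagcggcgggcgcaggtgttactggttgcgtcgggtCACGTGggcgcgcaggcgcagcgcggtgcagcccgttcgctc
HNRNPH3: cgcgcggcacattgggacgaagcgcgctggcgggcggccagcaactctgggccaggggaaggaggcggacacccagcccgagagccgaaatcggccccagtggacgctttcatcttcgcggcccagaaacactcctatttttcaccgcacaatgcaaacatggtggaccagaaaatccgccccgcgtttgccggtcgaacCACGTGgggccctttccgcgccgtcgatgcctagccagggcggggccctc
HNRNPD: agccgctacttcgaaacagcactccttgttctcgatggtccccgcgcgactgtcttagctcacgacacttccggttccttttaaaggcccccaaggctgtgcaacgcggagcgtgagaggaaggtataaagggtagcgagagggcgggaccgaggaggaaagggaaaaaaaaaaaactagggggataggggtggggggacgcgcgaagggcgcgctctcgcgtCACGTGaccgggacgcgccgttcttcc
HNRNPH2 held 2 E-boxes, which began 42 and 9 bases before the start. In HNRNPM, HNRNPH3 and HNRNPD the single E-box began 42, 50 and 27 bases before the RefSeq start. GENCODE places the gene start of HNRNPM, HNRNPH3 and HNRNPD farther upstream, so these windows lie partly or wholly within the genes. A match describes these letters and is not a measured binding site. The SRSF genes with a promoter entry, TRA2B, U2AF1, U2AF2 and SRPK1 held none in this window, and HNRNPA1, HNRNPA1P10, HNRNPA1P33, SRSF2 and TRA2A had no entry.

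The first comparison asked how these genes differed between cells with and without exogenous MYCN. On FPKM as deposited, most of them were higher in the MYCN lines, and on the spike-in scale the direction was turned, as given below. HNRNPH2 had the largest mean rise that passed the test, and it is not among the genes listed below whose mean difference turned. SRPK1, HNRNPAB, HNRNPC, U2AF1, SRSF1 and HNRNPA2B1 followed with mean log2 differences of 0.64 to 0.90. In WT, 37 of 44 genes were higher, against 31.6% of all 11575 tested genes, and 1 was lower, against 22.6%. In T58A, 32 were higher (30.9% of all genes) and 0 lower (23.3%), also at an unadjusted p under 0.05. In S62A, 37 were higher (31%) and 1 lower (23.4%), and in T58A S62A 33 were higher (31.2%) and 1 lower (24.1%). Values of several lines are given below in the order SH-EP, WT, T58A, S62A, T58A S62A. Calls are a Benjamini-Hochberg adjusted p under 0.05 by limma, on log2(FPKM + 0.1), in 1 fit over all groups. The median log2 difference of the 44 genes was 0.44, 0.34, 0.36 and 0.38 in the 4 MYCN lines, beside 0.07, 0.05, 0.06 and 0.06 over all tested genes. The 4 comparisons share the 3 SH-EP libraries and are not independent of each other. Counted over the 4 lines, 30 genes were higher in each (19.2% of all genes), and 0 were lower in each (13.4%).

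ERCC spike-ins, RNAs added by cell number, gave another scale, on which a value stands for RNA per cell rather than for a level relative to sequencing depth. In DMSO, spike-ins took 1.99% to 2.29% of FPKM in SH-EP, beside 3.15% to 9.36% in the other lines. Scaled to the 55 spike-ins that averaged 1 FPKM or more, the median of all tested genes in the MYCN lines moved by −0.82 to −1.94 on the log2 scale, so that 40, 33, 42 and 27 of the 44 genes were lower than in SH-EP. Of all tested genes, 88.7%, 78%, 95.1% and 70.2% were lower on that scale. The median log2 difference of the 44 genes was −0.80, −0.62, −1.61 and −0.46, beside −1.18, −0.89, −1.88 and −0.76 over all genes. The median of the 44 genes lay above that of all genes on both scales. A spike-in factor moves all genes of a library alike, so the same order of medians after scaling is no second result. The directions in the next paragraphs are those of FPKM as deposited. The scale rests on the cell numbers by which spike-ins were added, so an error in these cannot be told apart from less RNA per cell. Scaling factors within WT in DMSO alone ran from 1.13 to 1.65.

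**Figure D1:**
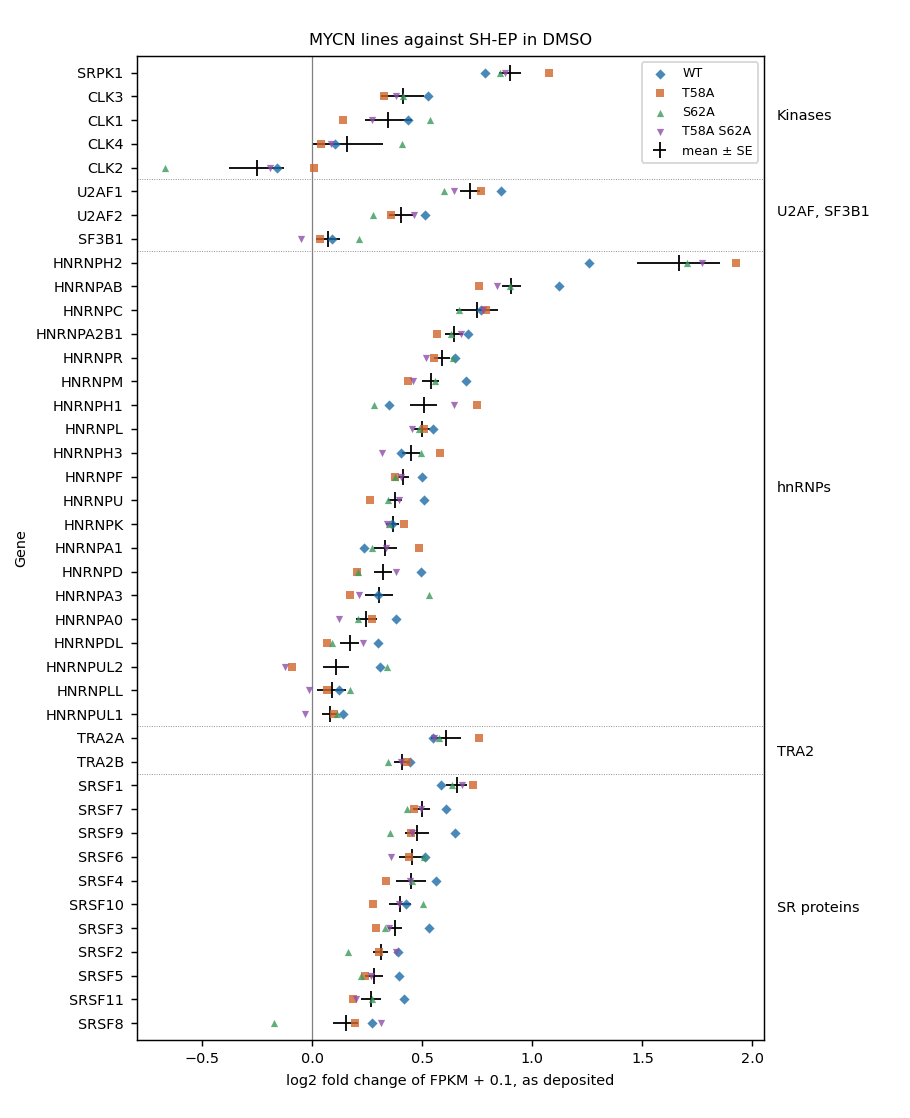
Log2 difference of each MYCN line from SH-EP in DMSO, FPKM as deposited, for 41 of the 44 tested genes ordered by role (HNRNPA1P10, HNRNPA1P33 and HNRNPA1L2 are left out). Coloured symbols are the 4 lines and the black cross is their mean ± SE. Nearly all means lie to the right of 0, with HNRNPH2 farthest at 1.66.

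All 11 SR protein genes tested were higher in the mean over the 4 MYCN lines (34.6% of all genes were), by 0.15 to 0.66 on the log2 scale, and turned lower with spike-in scaling. SRSF1, the prototype of the family, had 83.0, 80.4 and 83.1 FPKM in the SH-EP libraries and 115 to 150.5 FPKM, with a median of 129, in the 12 libraries of the MYCN lines. The groups did not overlap, and the mean log2 difference was 0.66 (SE 0.0475, adjusted p = 2.04e-11), a fold of 1.58. SRSF7 and SRSF9 followed, with mean log2 differences of 0.50 (adjusted p = 6.48e-11) and 0.48 (adjusted p = 3.05e-08). SRSF6 had 55.7 to 59.3 FPKM in SH-EP and 64.4 to 88.8 FPKM in the MYCN lines, a mean log2 difference of 0.45 (SE 0.0585, adjusted p = 3.72e-07). The smallest differences were those of SRSF5 (0.28), SRSF11 (0.27) and SRSF8 (0.15, adjusted p = 0.0301). SRSF8 was not alike in the 4 lines, with 9.53, 9.58 and 10.1 FPKM in SH-EP, 8.58, 7.92 and 9.49 FPKM in S62A, and 10.2 to 12.9 FPKM in the other 3 lines. For the other 10 SR protein genes, all 3 libraries of each MYCN line lay above all 3 of SH-EP. Of all tested genes, 37.6%, 37.5%, 37.7% and 35.4% lay wholly above SH-EP in WT, T58A, S62A and T58A S62A, each line taken alone.

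The TRA2 proteins, which bind GAA-rich exonic enhancers, were both higher on the deposited scale. TRA2A had 32.3, 33.0 and 34.0 FPKM in SH-EP and 44.6 to 57.2 FPKM in the MYCN lines, a mean log2 difference of 0.61 (SE 0.0671, adjusted p = 3.11e-08). For TRA2B the values were 54.3 to 56.6 and 67.0 to 79.8 FPKM, with a mean log2 difference of 0.41 (SE 0.0355, adjusted p = 5.79e-10).

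Of the 23 hnRNP genes tested, 17 were higher (34.6% of all genes) and 1 was lower (26.3%) in the mean over the MYCN lines, again on FPKM as deposited. HNRNPH2, which binds runs of G, lies at chrX:100663210-100669121 (GRCh37) and had 3.59, 3.36 and 5.81 FPKM in SH-EP. It had 10.3, 11.6 and 8.40 FPKM in WT, 12.5, 18.9 and 17.2 in T58A, 11.8, 14.1 and 15.4 in S62A, and 12.2, 13.5 and 17.9 in T58A S62A. No library of a MYCN line was as low as the highest of SH-EP, and the mean log2 difference was 1.66 (SE 0.187, adjusted p = 4.2e-08), a fold of 3.17. The table also holds a read-through row, RPL36A-HNRNPH2, over the same locus, with 45.4 ± 1.66 FPKM (SD, n = 3) in SH-EP and means of 39.6 to 53.2 FPKM in the MYCN lines. Reads could have been split between the 2 rows, so the size of the HNRNPH2 difference is uncertain.

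HNRNPAB had 170.8, 179 and 170.8 FPKM in SH-EP and 289 to 392 FPKM, with a median of 317, in the MYCN lines. Its mean log2 difference was 0.90 (SE 0.0443, adjusted p = 1.31e-14), a fold of 1.87. HNRNPC, which binds uridine tracts, had 167, 169 and 126 FPKM in SH-EP and 223 to 283 FPKM in the MYCN lines, a mean log2 difference of 0.75 (SE 0.0954, adjusted p = 2.94e-07). HNRNPA2B1, the most abundant of these genes, had 335, 365 and 359 FPKM in SH-EP and 508 to 614 FPKM in the MYCN lines (0.64, SE 0.0404, adjusted p = 1.4e-12). The groups were apart for all 3 genes. At the other end, HNRNPUL1 differed by 0.08 (adjusted p = 0.0551), HNRNPLL by 0.09 (adjusted p = 0.254) and HNRNPUL2 by 0.11 (adjusted p = 0.111). The only hnRNP row lower in the mean was HNRNPA1L2 (−1.40, SE 0.471, adjusted p = 0.0131), whose libraries in WT alone ran from 4.39 to 27.1 FPKM. HNRNPA1P10 (−5.44, adjusted p = 0.0967) and HNRNPA1P33 (2.07, adjusted p = 0.087) did not pass the test in the mean, and HNRNPA1P33 was called higher in S62A.

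Of the 3′ splice site factors, U2AF1 and U2AF2 were higher on the deposited scale. U2AF1 had 135, 134 and 133 FPKM in SH-EP and 192 to 260.4 FPKM in the MYCN lines, with no overlap and a mean log2 difference of 0.72 (SE 0.044, adjusted p = 9.67e-13). U2AF2 had 75.9 to 83.4 and 94.3 to 126 FPKM (0.40, SE 0.0543, adjusted p = 7.62e-07). SF3B1 had 84.3, 84.8 and 88.4 FPKM in SH-EP and 79.8 to 102 FPKM in the MYCN lines, and its mean log2 difference of 0.07 (SE 0.0532, adjusted p = 0.265) did not pass.

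The kinases were divided. SRPK1, which phosphorylates SR proteins in the cytoplasm, had 20.7, 20.2 and 20.5 FPKM in SH-EP and 32.5 to 44.8 FPKM, with a median of 37.4, in the MYCN lines. The mean log2 difference was 0.90 (SE 0.0497, adjusted p = 1.42e-13), a fold of 1.86 on the deposited scale. The nuclear kinases CLK1 (0.35, SE 0.108, adjusted p = 0.00815) and CLK3 (0.41, SE 0.0984, adjusted p = 0.000883) were higher with overlap in some lines, since CLK1 lay apart from SH-EP in 2 lines and CLK3 in 3. CLK4 (0.16, SE 0.162, adjusted p = 0.415) and CLK2 (−0.25, SE 0.124, adjusted p = 0.0826) did not pass. CLK2 was called lower in S62A, with 13.4, 15.8 and 14.2 FPKM against 22.5, 23.4 and 23.1 FPKM in SH-EP (log2 difference −0.67, adjusted p = 0.000919).

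**Figure D2:**
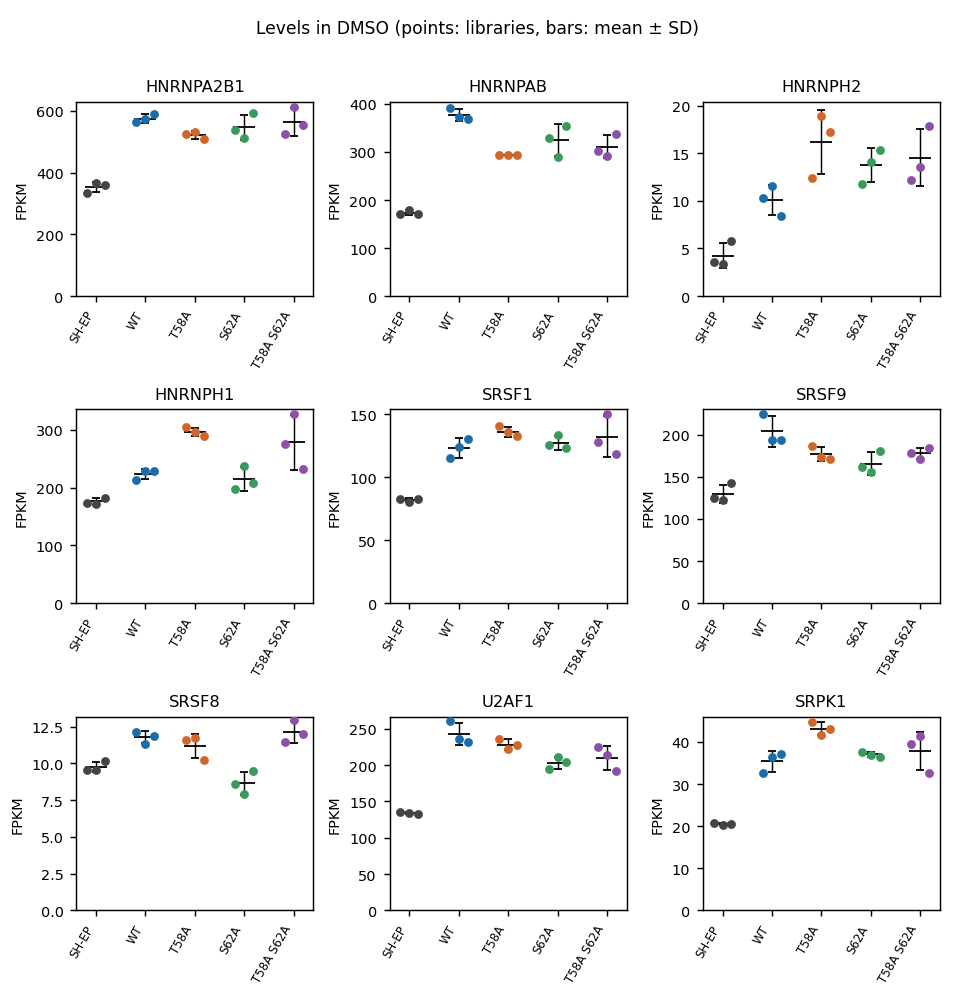
FPKM as deposited of 9 genes in the DMSO libraries of SH-EP and the 4 MYCN lines. Points are libraries and bars are the mean ± SD of 3. SH-EP is below every MYCN line for HNRNPA2B1, HNRNPAB, HNRNPH2, HNRNPH1, SRSF1, SRSF9, U2AF1 and SRPK1, while SRSF8 in S62A is at 7.92 to 9.49 FPKM, below the 9.53 to 10.1 FPKM of SH-EP.

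The phosphorylation mutants were then compared with each other. By limma's F-test over the 4 MYCN lines in DMSO, 26 of the 44 genes (59.1%) differed, beside 49.1% of all tested genes. The count was 17 when only these groups were fitted and 40 with spike-in scaling. These other counts have no share of all genes beside them. Spike-in factors in DMSO were 0.720 to 0.936 in S62A and 1.58 to 2.02 in T58A S62A, and a factor moves all genes of a library alike. As deposited, the differences were small in size. HNRNPUL2 had the lowest adjusted p of the hnRNP genes (4.35e-06), with 30.2, 31.0 and 31.3 FPKM in WT and 30.9, 29.0 and 35.3 FPKM in S62A. It had 24.5, 20.8 and 25.2 FPKM in T58A and 21.7, 24.8 and 22.3 FPKM in T58A S62A, so that both lines with the T58A change were below both without it. A read-through row, HNRNPUL2-BSCL2, covers the same locus and makes this value uncertain. HNRNPH1, another G-run binder, was arranged the other way, with 304, 295 and 289 FPKM in T58A and 275, 327 and 232 FPKM in T58A S62A, beside 214, 229 and 229 FPKM in WT and 198, 237 and 208 FPKM in S62A (adjusted p = 4.92e-05). One T58A S62A library lay within the range of S62A. HNRNPAB (adjusted p = 7.48e-05) was highest in WT, with the mutants lower by 0.22 to 0.36 on the log2 scale. Of the SR protein genes, SRSF8 (adjusted p = 3.06e-05) was lower in S62A than in WT by a log2 difference of −0.44, SRSF3 (adjusted p = 0.00021) was lower in each mutant, by −0.18 to −0.24, and SRSF2 (adjusted p = 0.000268) by −0.01 to −0.23. MYCN itself had means of 12.9, 8.52, 5.72 and 13.5 FPKM in these 4 lines, and its part in these differences was not tested. Each variant was a single stable line, so a mutation cannot be told apart from other differences between lines.

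The second comparison asked how the genes responded to CYC065. Nearly all of them were lower on the spike-in scale, as were nearly all genes, whereas on FPKM as deposited 30 of 44 were higher (46.9% of all genes) and 10 lower (39.8%) in the mean over the 5 lines. CLK2 and CLK4 fell most on both scales, and TRA2B and SF3B1 fell least on the first and rose most on the second. The scales differ by a factor per library, so the order of genes could hardly differ between them. With spike-in scaling, 37, 41, 39, 41 and 37 of the 44 genes were lower in the 5 lines, beside 76.3%, 93.7%, 84.5%, 90.2% and 76.4% of all tested genes. None was called higher in any line by limma, nor at an unadjusted p under 0.05 (0.89%, 0.769%, 1.24%, 0.959% and 1.84% of all genes). The median log2 change of the 44 genes was −0.89, −1.39, −0.85, −1.13 and −0.81, beside −1.08, −1.58, −1.09, −1.35 and −0.98 over all genes. In the mean over the 5 lines, 43 of 44 were lower (94.4% of all genes), the exception being HNRNPA1P10 (−1.47, adjusted p = 0.331). Lower in each of the 5 lines were 34 genes (69.8% of all genes). Among them were all 11 SR protein genes, all 5 kinases, TRA2A, U2AF1 and 16 of 23 hnRNP genes. For the hnRNP genes this is near the share of all genes. The 23 include the near-copies of HNRNPA1, whose values are uncertain.

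On FPKM as deposited, 27, 28, 28, 28 and 26 of the 44 genes were higher in the same order of lines (42.7%, 37%, 38.1%, 38.8% and 38.6% of all genes), and 11, 8, 6, 9 and 9 were lower (33.5%, 34.2%, 33.3%, 34.6% and 34.2%). Higher in each of the 5 lines were 24 genes (28.5% of all genes), and lower in each were 6 (24.4%), namely CLK2, CLK4, SRPK1, SRSF3, SRSF6 and HNRNPDL. By role, in the mean over the lines, 6 of 11 SR protein genes were higher and 5 lower, a split near the 46.9% and 39.8% of all genes. In the same mean 17 of 23 hnRNP genes were higher and 2 lower, both TRA2 genes and all 3 splice site factors were higher, and 2 kinases were higher and 3 lower. The summed FPKM of the 51 genes went from 4156 ± 31.0 to 5740 ± 48.0 (SD, n = 3) in SH-EP, and from means of 5472 to 5861 to means of 7478 to 7734 in the MYCN lines. Of the FPKM of all gene rows, with spike-ins left out, they took 0.988% ± 0.0144 in DMSO and 0.788% ± 0.0121 in CYC065 in SH-EP. In the MYCN lines the means were 1.23% to 1.26% in DMSO and 1.04% to 1.12% in CYC065. Their share of the FPKM of all genes thus fell while their summed FPKM rose, so a higher FPKM as deposited is not a higher share. These sums and shares are given without a test.

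**Figure D3:**
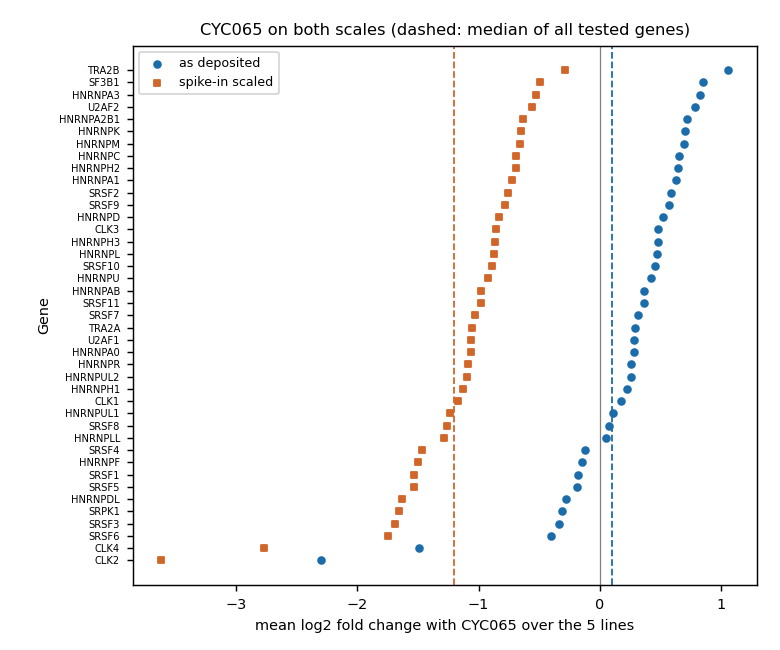
Mean log2 change with CYC065 over the 5 lines (horizontal axis) for 41 of the 44 tested genes (vertical axis; HNRNPA1P10, HNRNPA1P33 and HNRNPA1L2 are left out), as deposited (circles) and with spike-in scaling (squares), with dashed lines at the medians of all tested genes, 0.10 and −1.20. CLK2 and CLK4 are lowest and TRA2B highest on both scales, which differ by a factor per library that leaves the order of genes nearly unchanged.

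CLK2, at chr1:155232659-155248282 (GRCh37), is a nuclear kinase of SR proteins. It had 22.5, 23.4 and 23.1 FPKM in SH-EP in DMSO and 4.14, 5.99 and 6.70 FPKM in CYC065. In WT, 20.6, 19.1 and 22.1 FPKM became 2.63, 3.76 and 4.13, and in T58A S62A, 23.0, 19.3 and 18.2 FPKM became 3.05, 2.30 and 2.19. CYC065 libraries were below all DMSO libraries in all 5 lines, and the mean log2 change was −2.30 as deposited (SE 0.0704, adjusted p = 1.23e-19, 4.93-fold lower) and −3.62 with spike-in scaling (SE 0.0975, adjusted p = 2.54e-22, 12.3-fold lower).

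CLK4, at chr5:178029665-178057616, was a gene of low level, with 2.90, 3.08 and 3.30 FPKM in SH-EP in DMSO and 0.469, 0.245 and 0.319 FPKM in CYC065. In T58A, 3.25, 2.88 and 3.43 FPKM became 1.99, 1.99 and 1.57 FPKM. The mean log2 change was −1.50 as deposited (SE 0.0914, adjusted p = 1.02e-13) and −2.77 with spike-in scaling (SE 0.126, adjusted p = 9.82e-18). The other CLK genes fell less or turned with the scale. CLK1 changed by 0.17 as deposited (SE 0.0613, adjusted p = 0.012) and by −1.17 with spike-in scaling, and CLK3 by 0.48 (SE 0.0557, adjusted p = 1.82e-08) and −0.86. SRPK1 was lower on both scales, by −0.31 (SE 0.0281, adjusted p = 1.75e-10) and −1.66, with 20.2 to 20.7 FPKM becoming 16.8 to 17.9 FPKM in SH-EP.

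**Figure D4:**
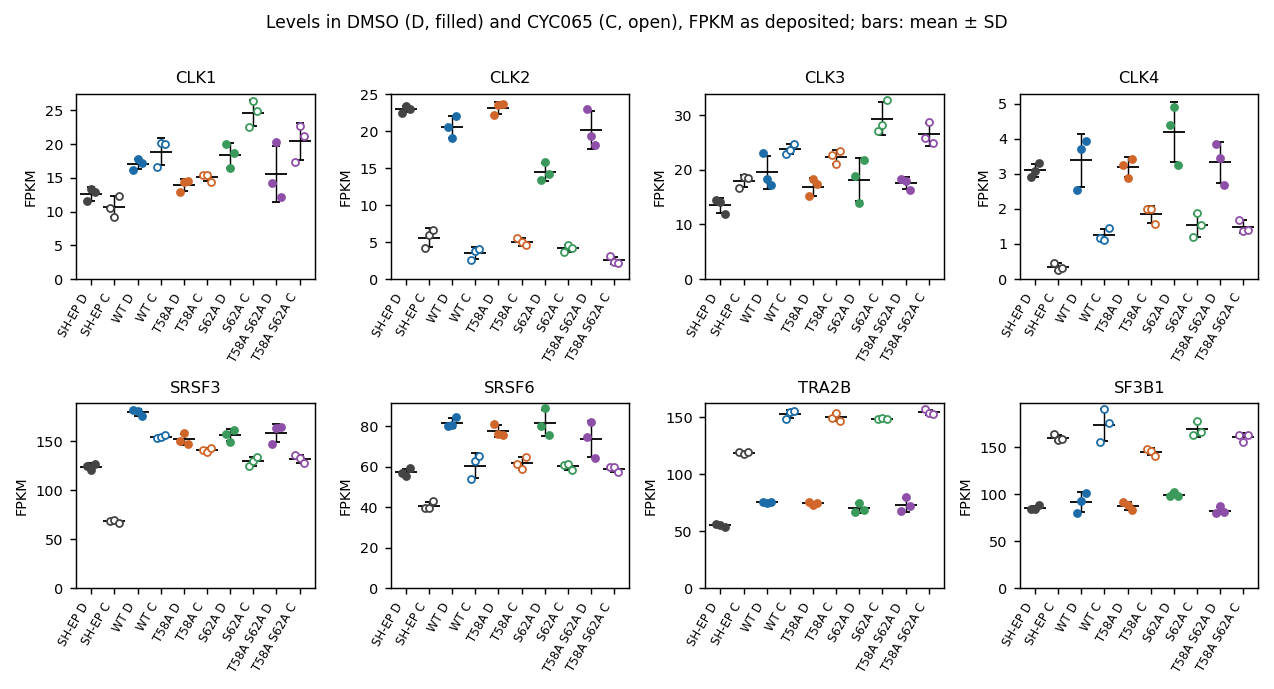
FPKM as deposited of CLK1 to CLK4, SRSF3, SRSF6, TRA2B and SF3B1 in DMSO (filled) and CYC065 (open) in the 5 lines. Points are libraries and bars are the mean ± SD of 3. CLK2 goes from 13.4 to 23.6 FPKM in DMSO to 2.19 to 6.70 FPKM in CYC065, and TRA2B from 54.3 to 79.8 FPKM to 118 to 157 FPKM.

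Among SR protein genes, SRSF6 and SRSF3 fell most. SRSF6 had 56.7, 55.7 and 59.3 FPKM in SH-EP in DMSO and 39.6, 39.5 and 43.0 FPKM in CYC065, and in the MYCN lines it went from 64.4 to 88.8 to a range of 53.8 to 65.2 FPKM. Its mean log2 change was −0.40 as deposited (SE 0.0331, adjusted p = 3.72e-11) and −1.75 with spike-in scaling (adjusted p = 4.69e-17). SRSF3 had 125, 120.6 and 127 FPKM in SH-EP in DMSO and 68.8, 69.4 and 67.3 FPKM in CYC065, a mean over the lines of −0.34 as deposited (SE 0.0186, adjusted p = 1.04e-14) and −1.69 with spike-in scaling. SRSF5 was next as deposited (−0.19, adjusted p = 7.4e-08). At the other end were SRSF2, also known as SC35 (0.59, SE 0.0188, adjusted p = 2.84e-19), SRSF9 (0.57, adjusted p = 4.52e-15) and SRSF10 (0.45, adjusted p = 1.11e-13), which were −0.76, −0.78 and −0.89 with spike-in scaling.

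TRA2B had 56.6, 55.3 and 54.3 FPKM in SH-EP in DMSO and 119.4, 118 and 119.8 FPKM in CYC065, and 67.0 to 79.8 FPKM became 147 to 157 FPKM in the MYCN lines. The log2 change as deposited was alike in the 5 lines, at 1.10, 1.02, 1.01, 1.08 and 1.08, with a mean of 1.06 (SE 0.0201, adjusted p = 2.12e-23), a fold of 2.08. With spike-in scaling it was −0.29 (SE 0.0816, adjusted p = 0.0015). TRA2A changed by 0.29 (adjusted p = 1.46e-07) and −1.06. SF3B1 went from 84.3 to 88.4 to a range of 157 to 164 FPKM in SH-EP, a mean change of 0.85 (SE 0.0301, adjusted p = 1.94e-18) as deposited and −0.50 with spike-in scaling. U2AF2 changed by 0.79 (adjusted p = 1.44e-17) and −0.56, and U2AF1 by 0.28 (adjusted p = 1.33e-10) and −1.07.

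Among hnRNP genes, HNRNPA3 (0.82, SE 0.0358, adjusted p = 1.16e-16), HNRNPA2B1 (0.71, SE 0.0228, adjusted p = 2.83e-19) and HNRNPK, which binds C-rich tracts (0.70, SE 0.0167, adjusted p = 1.22e-21), rose most as deposited and were lower by spike-in scaling, at −0.52, −0.64 and −0.65. HNRNPA2B1 went from 335 to 365 to a range of 595 to 607 FPKM in SH-EP and reached 962 FPKM in S62A. HNRNPDL (−0.28, adjusted p = 9.28e-11) and HNRNPF (−0.15, adjusted p = 6.94e-10) were the hnRNP genes called lower as deposited. They were at −1.63 and −1.50 with spike-in scaling. HNRNPA1P33 (−0.73, adjusted p = 0.245) and HNRNPA1P10 (−0.47, adjusted p = 0.783) did not pass as deposited.

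**Figure D5:**
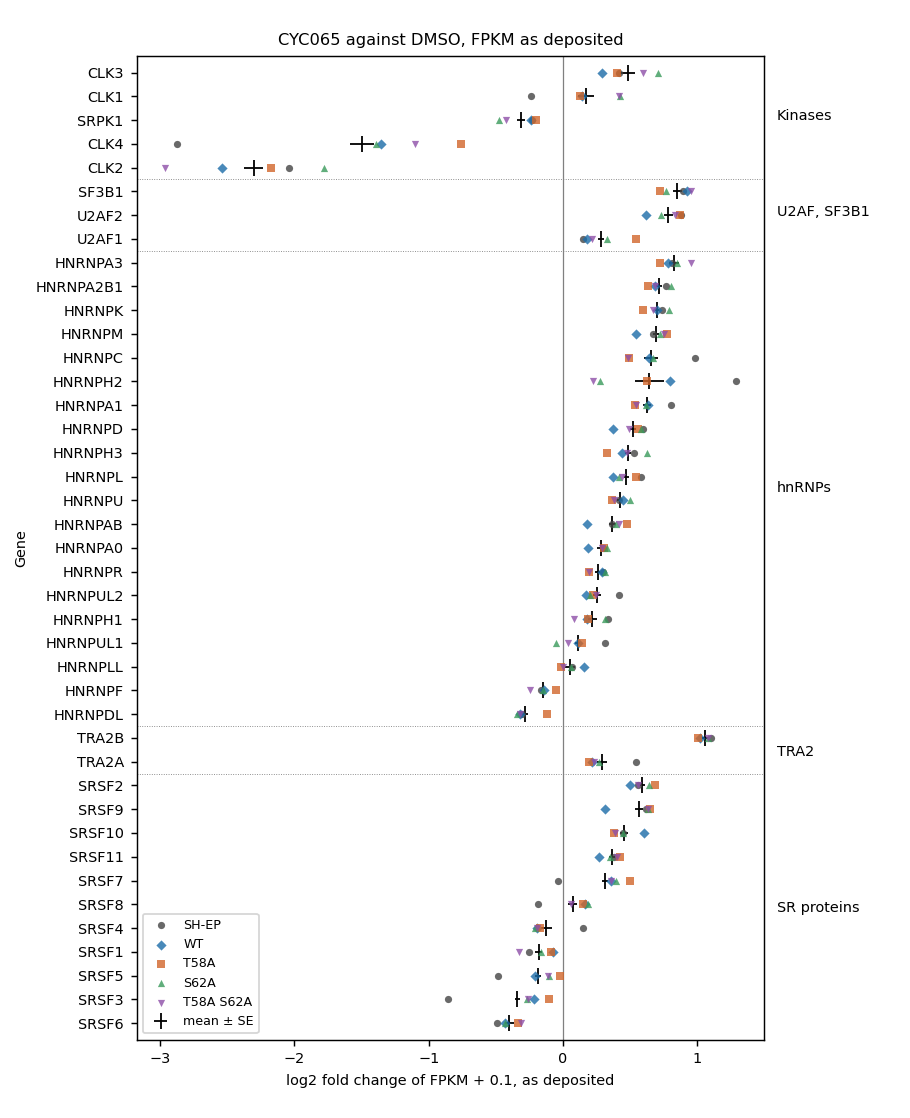
Log2 change with CYC065 in each of the 5 lines, FPKM as deposited, for 41 of the 44 tested genes ordered by role (HNRNPA1P10, HNRNPA1P33 and HNRNPA1L2 are left out). Coloured symbols are lines and the black cross is their mean ± SE. CLK2 and CLK4 lie at −2.30 and −1.50, and TRA2B at 1.06.

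The third comparison asked whether the response to CYC065 differed between MYCN lines and SH-EP, as the difference of the log2 changes in the same fit. With spike-in scaling, 2 of the 44 genes passed in the mean over the MYCN lines, CLK4 in the higher direction (4.22% of all genes) and HNRNPH2 in the lower (1.81%). CLK4 fell by 4.19 on the log2 scale in SH-EP and by 2.89, 1.91, 2.70 and 2.15 in the MYCN lines, a mean difference of 1.78 (SE 0.31, adjusted p = 0.000459). The values in SH-EP in CYC065 were under 0.5 FPKM as deposited, where the pseudocount bears on a log2 change, and the mean difference was 1.28 with a pseudocount of 1 (adjusted p = 0.000297). HNRNPH2 changed by 0.04 in SH-EP and by −0.88, −0.57, −1.21 and −0.85 in the MYCN lines, a mean difference of −0.92 (SE 0.27, adjusted p = 0.0396). That call was lost without any 1 of 13 libraries, with an adjusted p of up to 0.214, and with spike-ins of at least 50 FPKM (adjusted p = 0.111), and the read-through row applies here as well. SRSF3 did not pass with spike-in scaling (0.54, adjusted p = 0.0914). Line by line, CLK4 was called in the higher direction in each MYCN line (1.82%, 2.35%, 3.11% and 5.27% of all genes, and 1.39% in all 4). In the lower direction SRSF4 was called in WT (14.1% of all genes) and HNRNPH2 in S62A (1.72%), and 0 genes were called by limma in T58A (0.311%) and T58A S62A (0.19%). At an unadjusted p under 0.05, none of the 44 was lower in T58A, and CLK2 and HNRNPH2 were in T58A S62A.

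On FPKM as deposited, 15 of the 44 genes passed, 8 in the higher direction (13% of all genes) and 7 in the lower (20.3%). SRSF3 had the lowest adjusted p, with a log2 change of −0.86 in SH-EP but of −0.21, −0.11, −0.27 and −0.26 with MYCN (mean difference 0.64, adjusted p = 3.13e-10). SRSF7 changed by −0.03 in SH-EP and by 0.36 to 0.50 in the MYCN lines (0.44, adjusted p = 1.5e-06), and CLK4 was called again (1.72, adjusted p = 3.59e-06). In the lower direction HNRNPUL1 had the lowest adjusted p (−0.25, adjusted p = 0.000375), and HNRNPH2 differed most in size (−0.81, adjusted p = 0.0219).

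Other splicing genes were set beside these. Of 61 genes of the core snRNPs and spliceosome, 52 were higher and 3 lower in the MYCN lines as deposited, with a median log2 difference of 0.41, and of 41 other splicing regulators tested 29 were higher and 4 lower, with a median of 0.25. The medians of the 44 genes and of all genes were 0.40 and 0.06, and 35 of the 44 were higher (34.6% of all genes) and 1 lower (26.3%). SNRPF (1.00, adjusted p = 3.19e-10) and SNRPG (0.93, adjusted p = 1.72e-09), 2 of the Sm proteins, were highest in the first list, and SF3B4 was lowest (−0.27, adjusted p = 0.000162). In the second, DAZAP1 (0.79, adjusted p = 1.61e-11) was highest and NOVA1 (−0.61, adjusted p = 3.74e-05), a neuronal splicing regulator, was lowest. With CYC065, as deposited, 47 core genes were higher and 10 lower, and 23 regulators were higher and 15 lower (46.9% and 39.8% of all genes). PRPF3 (−1.08, adjusted p = 1.77e-20) and RBM5 (−2.16, adjusted p = 5.24e-23) fell most in their lists, and the kinase DYRK1A rose most among the regulators (1.71, adjusted p = 1.59e-22). With spike-in scaling, all 61 core genes and 40 of 41 regulators were lower, close to the 94.4% of all genes, and DYRK1A alone was higher (0.37, adjusted p = 0.000246).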

How the data were processed

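Poly(A) RNA from 30 libraries of 10 groups had been sequenced with a directional kit and ERCC spike-ins added by cell number. Per the paper's methods and the labels, the authors aligned reads to hg19 with HISAT2 and made FPKM values with Cufflinks 2.2.1, counting by strand. The annotation is not given in the sources used here. The deposited unit is FPKM, so the read number behind a value is unknown. Columns of other samples numbered 0. Values were tested as log2(FPKM + 0.1) where a gene averaged 1 FPKM or more, by limma 3.58.1 (trend) in R 4.3.3, in 1 fit over 10 groups, with Benjamini-Hochberg adjustment over 11575 genes at 0.05. A fold change on this scale understates the change of low genes. Lines were compared as deposited, and CYC065 with DMSO on values scaled to 55 of 92 spike-ins and as deposited. Within-group correlations of libraries were 0.925 to 0.959, and no library pair was identical. An exact permutation test of 3 against 3 cannot go below 0.1 and was not used. The steps were tested on simulated data. The members and lists were chosen with earlier results of these data known. Named genes were all TRA2, U2AF, SF3B1, CLK and SRPK1 genes, SRSF6, the 3 highest and 3 lowest SRSF and HNRNP genes of each comparison, the 3 with the lowest adjusted p for tests of differences, genes below the filter, and the 2 highest and 2 lowest of the other lists. The alternatives were other pseudocounts, filters, spike-in sets, scalings, fitted groups and libraries left out. RefSeq promoters were matched by symbol, and gene positions were taken from GENCODE on GRCh37.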

Additional observations from a re-analysis of the deposited data

Results flagged for a closer look

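The response to CYC065 on the spike-in scale differed from that of SH-EP in 6 single-line tests by limma, adjusted over all tested genes. For CLK4 the log2 changes differed by 1.31 for WT, 2.28 for T58A, 1.49 for S62A, and 2.04 for the double mutant. The adjusted p-values were 0.038, 0.0015, 0.027 and 0.0014. The values in WT and S62A lost the call with spike-ins of at least 50 FPKM (adjusted p = 0.147 and 0.135). For SRSF4 the difference was −0.77 in WT (adjusted p = 0.047), from log2 changes of −1.11 in SH-EP and −1.88 in WT, and it did not pass with a pseudocount of 1 (adjusted p = 0.0569) or with spike-ins of at least 50 FPKM (adjusted p = 0.149). For HNRNPH2 the difference was −1.25 in S62A (adjusted p = 0.031), from 0.04 in SH-EP and −1.21 in S62A, and it did not pass with those spike-ins either (−1.60, adjusted p = 0.0531). The 4 lines share the SH-EP libraries.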

How the results depend on the processing

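No paired analysis was possible because the columns of the deposited table carry library numbers that do not match the replicate numbers of the labels. The scale decides the directions. Scaling to spike-ins took the genes higher than SH-EP in all 4 lines from 30 to 0, those lower from 0 to 25, and those differing among the MYCN lines from 26 to 40. With that scaling, between 70.2% (double mutant) and 95.1% (S62A) of all tested genes fell below SH-EP in a single line. The turn to lower values was thus not particular to the 44 genes. Counts given here under other settings have no share of all tested genes beside them. The mean log2 differences from SH-EP that turned were CLK1 −0.91, CLK3 −0.84, HNRNPA0 −1.02, HNRNPA1 −0.93, HNRNPA2B1 −0.62, HNRNPA3 −0.96, HNRNPAB −0.36, HNRNPC −0.51, HNRNPD −0.94, HNRNPDL −1.09, HNRNPF −0.85, HNRNPH1 −0.75, HNRNPH3 −0.81, HNRNPK −0.89, HNRNPL −0.76, HNRNPM −0.72, HNRNPR −0.67, HNRNPU −0.88, SRPK1 −0.36, SRSF1 −0.60, SRSF10 −0.86, SRSF11 −0.99, SRSF2 −0.95, SRSF3 −0.88, SRSF4 −0.81, SRSF5 −0.98, SRSF6 −0.81, SRSF7 −0.76, SRSF8 −1.10, SRSF9 −0.78, TRA2A −0.65, TRA2B −0.85, U2AF1 −0.54, U2AF2 −0.86. Centring each library on its median, which undoes spike-in scaling, took the genes lower with CYC065 in all 5 lines from 34 to 2 and those higher from 0 to 26, and those lower as deposited from 6 to 2. The mean log2 changes that turned from the spike-in scale were CLK1 0.34, CLK3 0.65, HNRNPA0 0.45, HNRNPA1 0.79, HNRNPA1L2 0.30, HNRNPA2B1 0.88, HNRNPA3 0.99, HNRNPAB 0.53, HNRNPC 0.82, HNRNPD 0.69, HNRNPF 0.013, HNRNPH1 0.38, HNRNPH2 0.81, HNRNPH3 0.65, HNRNPK 0.86, HNRNPL 0.64, HNRNPLL 0.22, HNRNPM 0.86, HNRNPR 0.42, HNRNPU 0.59, HNRNPUL1 0.27, HNRNPUL2 0.42, SF3B1 1.02, SRSF10 0.62, SRSF11 0.53, SRSF2 0.75, SRSF4 0.040, SRSF7 0.48, SRSF8 0.24, SRSF9 0.73, TRA2A 0.46, TRA2B 1.22, U2AF1 0.45, U2AF2 0.95. As deposited, HNRNPF 0.013 and SRSF4 0.040 turned. The count of genes with a different CYC065 response was 2, and became 1 with a filter at 5 FPKM, which removes CLK4, 13 after centring, 15 as deposited, 1 with spike-ins of at least 50 FPKM, and 4 with the 47 spike-ins above 0 in every library, a set chosen after seeing the data. Fitting only the groups compared gave 17 in place of 26 differing among the MYCN lines. Asking also for a 1.5-fold change took 30 to 5, 24 to 6 and 6 to 2. Leaving out each library in turn gave 29 to 31 genes higher than SH-EP and 0 to 0 lower, 28 to 35 lower and 0 to 0 higher with CYC065 on the spike-in scale, 21 to 25 higher and 4 to 6 lower as deposited, 1 to 3 with a different response, and 22 to 33 differing among the MYCN lines. FPKM gives no read number, so the precision of low genes such as CLK4 is unknown.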
